A study of Mus musculus with 4 samples.

Results

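The genes of the mitochondrial ribosome were examined on 4 Affymetrix arrays of mouse embryonic stem (ES) cells, 2 from cells labelled Snai1 knockout and 2 from control cells. Snai1 codes for the transcriptional repressor Snail. All cultures were kept on feeder cells in the presence of the cytokine LIF, with no further treatment. The letters F/F in the control titles have no explanation in the labels, and the source name of the control samples also contains "knock out", so the direction of each difference rests on the titles and the genotype field. The members were the probe sets annotated with exactly 1 gene whose symbol is Mrpl or Mrps followed by a number, with or without a or b. Of 155 such probe sets on the array, the brightest of each gene (highest mean of the 4 arrays) was kept, which left 75 genes of the 18193 compared. By symbol 47 belonged to the large subunit and 28 to the small subunit. RefSeq lists 77 symbols of this form, and Mrpl30 and Mrpl53 were not analysed here because no probe set had either as its only gene.

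Mitochondria contain their own ribosomes, which translate the few proteins encoded in mitochondrial DNA, all of them subunits of the respiratory chain or of ATP synthase. The ribosomal RNAs are made in the organelle, whereas every ribosomal protein is encoded in the nucleus, made in the cytosol and imported. The small subunit binds the messenger RNA and decodes it, and the large subunit joins the amino acids and releases the chain at the inner membrane. ES cells make much use of glycolysis, but they also express the genes of this machinery at substantial levels.

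Values are deposited log2 expression values, so a difference of 1 corresponds to a doubling. With 2 arrays per group the number of arrays limits the precision, and the p-values measure only the spread between these arrays, since the labels do not say what separated the replicates. Array medians lay between 4.91 and 4.95. ES cell markers were bright on every array, and the mean over 9 of them was 11.60 and 11.53 in the knockout arrays against 11.03 and 11.16 in the control arrays. Snai1 itself lay at 3.79 and 4.04 in the knockout against 4.41 and 4.69 in the control arrays (limma adjusted p = 0.0692). All these values fell inside the 2.91 to 4.77 covered by control probe sets for Bacillus transcripts, so they do not check the labels. The arrays of the 2 groups differed in the gap between RNA ends, a common measure of RNA quality. For Actb, the probe set at the 3′ end exceeded that at the 5′ end by 1.11 and 0.80 in the knockout arrays and by 3.02 and 2.97 in the control arrays, and for Gapdh by 0.40 and 0.27 against 1.24 and 1.48. For Tfrc the gap was 2.67 and 2.85 against 3.88 and 3.66, and for Pcx it was nearly equal, at 0.55 and 0.60 against 0.63 and 0.65. In the first 3 of these genes the gap separates the groups as the genotype does, and genotype and this measure cannot be told apart in this design.

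All 75 members were well expressed. Their means over the 4 arrays ran from 8.11 to 12.15 with a median of 10.30, against a median of 6.18 over all genes, and none came near the Bacillus range. The brightest members were Mrpl15 in the large subunit (12.15) and Mrps14 in the small subunit (11.94), and the dimmest were Mrpl14 (8.11) and Mrps27 (8.43). Probe sets differ in affinity, so these levels do not rank the transcripts by abundance.

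Most mitoribosomal genes lay higher in the knockout, by small amounts. The difference was positive for 58 of 75 members (77.3%), against 46.6% of all genes, and its median was 0.28, against -0.022 over all genes. Among the 5295 genes at least as bright as the dimmest member, the median was -0.13 and 39.2% were positive. In the knockout 7 members passed as higher and 2 as lower at an adjusted p of 0.05 (limma with Benjamini-Hochberg adjustment over all 18193 genes). Of all genes, 1.98% passed as higher and 2.17% as lower, and of the genes at least as bright as the dimmest member 3.89% and 3.68%. The share of members that rose (9.33%) exceeded these backgrounds, and the share that fell (2.67%) did not stand apart from them. These backgrounds are not matched for genomic span, and members are short. Of other genes as bright, 10.2% rose up to a span of 5 kb and 8.66% from 5 to 10 kb. The shares of members there were nearer, at 12.5% and 14.3%. Both knockout arrays lay above both control arrays in 44 members (58.7%, against 23.1% of all genes) and below them in 11 (background 29.2%), and the groups overlapped in 20. The members' adjusted p-values were close to the threshold, between 0.0283 and 0.0487 for the 9 called genes, with another 15 members between 0.05 and 0.1. None of the 9 passed when any 1 of the 4 arrays was left out (adjusted p from 0.0652 upward), and Mrpl50, without knockout replicate 1, was the only member that passed in any of these 4 fits.

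**Figure D1:**
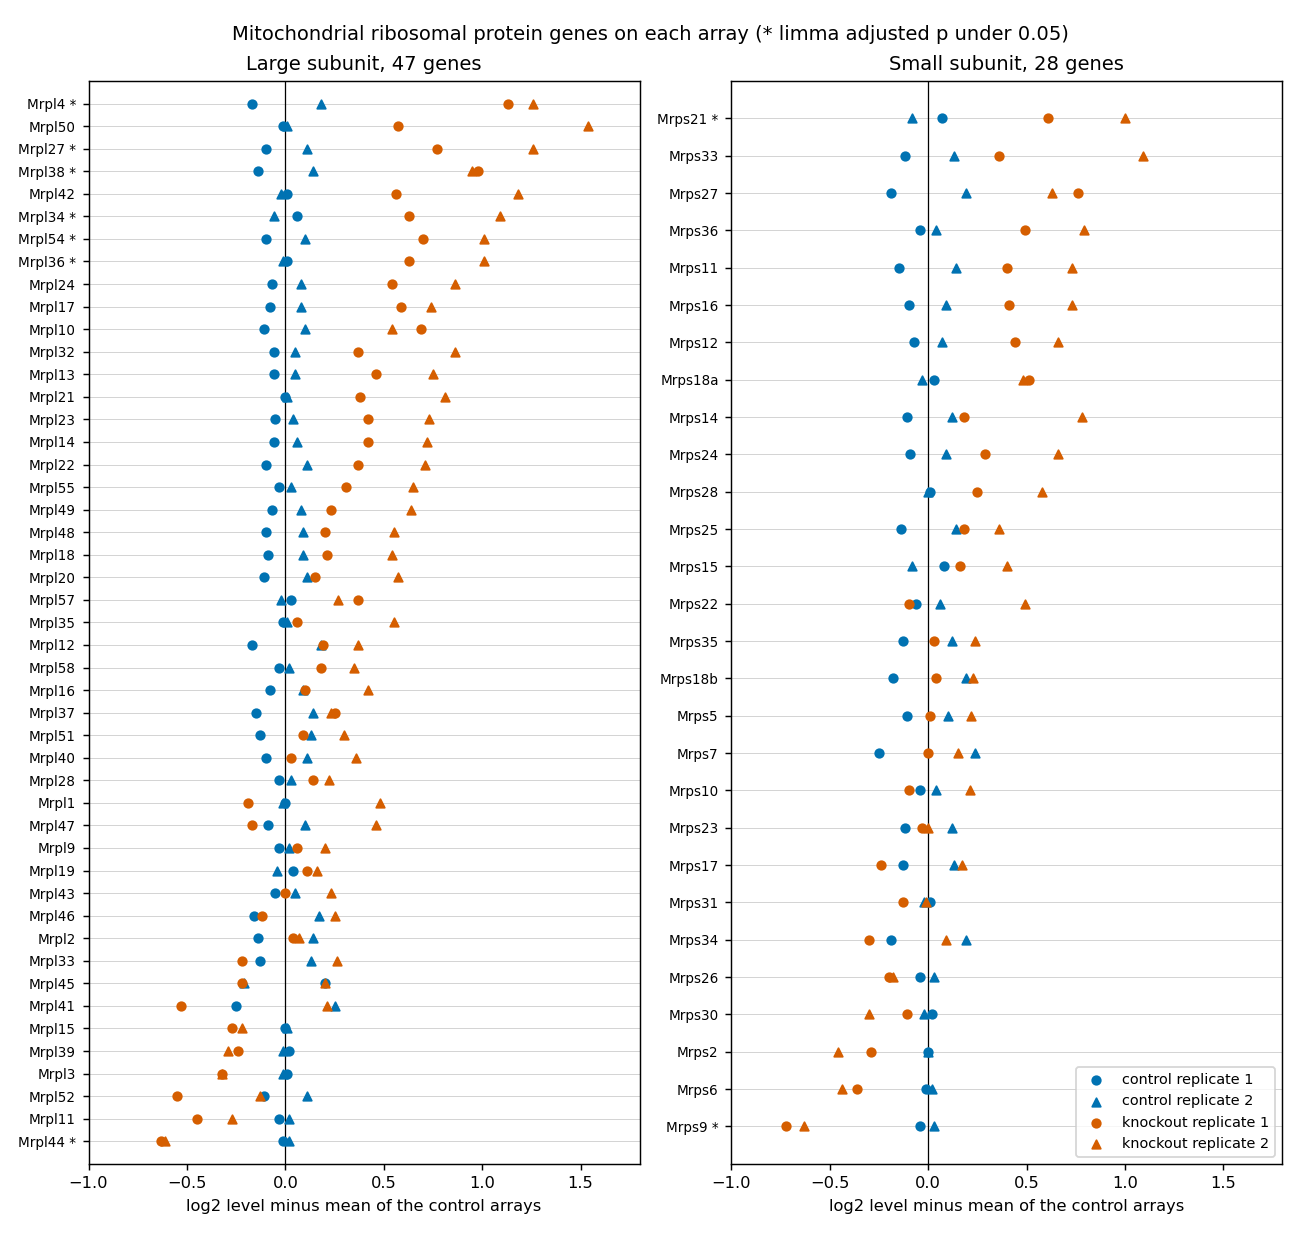
Level of each mitoribosomal gene on each array, as log2 level minus the mean of the control arrays, for 47 large subunit genes (left) and 28 small subunit genes (right), ordered by their difference; circles are replicate 1, triangles replicate 2, orange the knockout and blue the control. Most orange points lie to the right of the blue points, up to Mrpl4 (difference 1.19), and Mrpl44 and Mrps9 lie farthest to the left.

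The largest rise was that of Mrpl4, a core protein of the large subunit with a bacterial counterpart. It was at 10.41 and 10.54 in the knockout arrays and at 9.11 and 9.46 in the control arrays. Both knockout arrays stood well above both control arrays, by a log2 difference of 1.19 ± 0.16 (SE), or 2.28-fold (limma adjusted p = 0.0283). Mrpl4 has 1 probe set on this array.

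Mrpl27 encodes the homologue of a bacterial protein that reaches towards the site where peptide bonds are formed. Its values were 10.46 and 10.95 in the knockout against 9.59 and 9.80 in the control, a difference of 1.01 ± 0.19 (SE, 2.01-fold, adjusted p = 0.0426). A second probe set, dimmer at a mean of 6.89, differed by 0.59 in the same direction. Mrpl38, a large subunit protein without a bacterial counterpart, was at 8.89 and 8.86 against 7.77 and 8.05, and thus nearly the same on both knockout arrays (0.96 ± 0.15, SE, adjusted p = 0.0328). Its other 2 probe sets above a mean of 6 differed by 0.53 and 0.63.

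Mrpl34 and Mrpl36 encode small proteins of the large subunit with bacterial homologues, and Mrpl54 one that is specific to mitochondria. Mrpl34 was at 11.00 and 11.46 in the knockout against 10.43 and 10.31 in the control (0.86 ± 0.18, SE, adjusted p = 0.0483). Its second probe set, at a mean of 6.15, had the opposite sign (-0.39). Mrpl54 was at 9.38 and 9.69 against 8.58 and 8.78 (0.85 ± 0.16, SE, adjusted p = 0.0429). Mrpl36 was at 9.23 and 9.61 against 8.61 and 8.59 (0.82 ± 0.16, SE, adjusted p = 0.0453). In these 3 genes the lower knockout array was replicate 1, and it still lay above both control arrays.

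One small subunit gene passed as higher. Mrps21, which encodes a small protein with a bacterial homologue, was at 9.64 and 10.03 in the knockout against 9.10 and 8.95 in the control (0.81 ± 0.17, SE, 1.75-fold, adjusted p = 0.0487).

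The 2 members that fell belong to different subunits. Mrps9, a conserved small subunit protein, was at 9.92 and 10.01 in the knockout against 10.60 and 10.67 in the control, a difference of -0.67 ± 0.13 (SE, 1.59-fold higher in the control, adjusted p = 0.0453). Its other probe sets above a mean of 6 had the same sign, at -0.62 and -0.19. Mrpl44, a large subunit protein with a ribonuclease III-like fold, was at 9.99 and 10.01 against 10.61 and 10.64 (-0.62 ± 0.13, SE, adjusted p = 0.0487). Of its other probe sets, 1 repeated this fall (-0.55), 1 showed almost no difference (-0.051) and 1 was higher in the knockout (0.63). In both genes the replicates of a group agreed within a log2 difference of 0.1, and the direction of Mrpl44 depended on the probe set.

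Promoter sequences of 3 genes that rose and of Mrps9 are shown because these genes mark both ends of the distribution and because factors such as NRF1, ETS proteins and YY1 are known to act on nuclear genes of mitochondrial proteins. They are the called members with the largest differences that had an entry in the RefSeq promoter table (build GRCm38.p6). Each runs from 250 bases before the annotated start to 30 bases after it, on the plus strand: chr11:94653541-94653820 for Mrpl27, chr8:71464676-71464955 for Mrpl34, chr13:73330759-73331038 for Mrpl36 and chr1:42850983-42851262 for Mrps9. Capitals mark matches to CCGGAAG (ETS) in Mrpl27 and Mrpl34, to AAGATGGC (YY1, on the other strand) in Mrpl36 and to CGCANGCG (NRF1, on the other strand) in Mrps9.
Mrpl27: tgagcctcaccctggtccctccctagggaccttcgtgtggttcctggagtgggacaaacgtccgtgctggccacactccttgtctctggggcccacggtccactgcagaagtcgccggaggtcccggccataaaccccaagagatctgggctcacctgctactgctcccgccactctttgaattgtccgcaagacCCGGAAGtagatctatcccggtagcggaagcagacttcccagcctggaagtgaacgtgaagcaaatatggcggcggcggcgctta
Mrpl34: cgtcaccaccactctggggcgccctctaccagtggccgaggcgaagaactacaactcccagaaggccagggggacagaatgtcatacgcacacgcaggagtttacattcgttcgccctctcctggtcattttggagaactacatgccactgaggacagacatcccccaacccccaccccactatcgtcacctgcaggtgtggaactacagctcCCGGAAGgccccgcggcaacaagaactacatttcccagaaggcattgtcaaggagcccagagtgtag
Mrpl36: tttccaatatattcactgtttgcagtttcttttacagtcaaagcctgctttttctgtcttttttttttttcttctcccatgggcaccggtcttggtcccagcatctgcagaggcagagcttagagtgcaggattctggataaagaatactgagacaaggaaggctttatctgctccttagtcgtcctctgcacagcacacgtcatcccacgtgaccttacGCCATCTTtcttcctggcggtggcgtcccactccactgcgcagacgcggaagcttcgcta
Mrps9: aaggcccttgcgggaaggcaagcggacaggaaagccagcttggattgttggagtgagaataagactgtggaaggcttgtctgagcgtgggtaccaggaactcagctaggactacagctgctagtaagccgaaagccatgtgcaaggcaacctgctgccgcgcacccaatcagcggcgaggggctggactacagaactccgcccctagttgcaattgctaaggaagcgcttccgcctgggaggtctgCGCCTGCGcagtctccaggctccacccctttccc

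Each of the 4 windows held 1 match, and the matches did not belong to the same motif. Over the 300-base windows of the table, both strands searched and each motif counted by itself, CCGGAAG was present in 24 of 72 promoters of 66 members (33.3%) and in 8.86% of all 32851 promoters. The NRF1 letters were present in 19 (26.4%, against 8.21%) and the YY1 letters in 12 (16.7%, against 2.75%). Any of the 3 was found in 41 (56.9%, against 17.6%). The background of all promoters was not matched to the members in expression level or genomic span. The median difference was 0.38 in the 24 members with the ETS letters and 0.22 in the 42 without, 0.28 and 0.27 for NRF1 (19 and 47 members) and 0.52 and 0.20 for YY1 (12 and 54 members), given as a description without a test. A match describes letters and does not show binding.

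Below the threshold, 17 members had a difference of 0.5 or more, from 0.54 to 1.06 (adjusted p from 0.0502 to 0.121). In each of them both knockout arrays lay above both control arrays. Members picked for a large positive difference tend to separate in this way, so this adds little to the difference itself. The share among other genes picked alike was not computed. The 17 members included Mrpl50, with the second largest difference of all members. Mrpl50 was at 9.37 and 10.34 in the knockout against 8.79 and 8.81 in the control, so its knockout arrays differed from each other almost as much as from the control (1.06 ± 0.28, SE, adjusted p = 0.0747). Mrpl42 (0.87), Mrpl24 (0.70), Mrpl17 (0.66), Mrpl32 (0.62), Mrpl13 (0.61), Mrpl21 (0.59), Mrpl23 (0.58), Mrpl14 (0.57) and Mrpl22 (0.54) of the large subunit belonged to this class, as did Mrpl10 (0.62), a protein of the stalk that recruits translation factors. From the small subunit it held Mrps33 (0.72), Mrps27 (0.69), Mrps36 (0.64), Mrps16 (0.57), Mrps11 (0.57) and Mrps12 (0.55), the last a homologue of the bacterial protein of the decoding centre. Mrps36 carries a ribosomal name but is also known as a subunit of the 2-oxoglutarate dehydrogenase complex.

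A further 16 members, also chosen by size, lay between 0.25 and 0.50 (adjusted p from 0.0725 to 0.401), again without overlap of the groups. They were Mrpl55, Mrpl49, Mrpl48, Mrpl18, Mrpl20, Mrpl57, Mrpl35, Mrpl12, Mrpl58 and Mrpl16 of the large subunit and Mrps18a, Mrps14, Mrps24, Mrps28, Mrps15 and Mrps25 by name of the small one. Mrpl12, which forms the mobile part of the stalk, was at 11.57 and 11.75 in the knockout against 11.21 and 11.56 in the control (0.28). Mrpl58, which frees stalled ribosomes, was at 10.43 and 10.60 against 10.22 and 10.27 (0.27).

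In 18 members the difference was between 0 and 0.25, and the groups overlapped in 14 of them. These were Mrpl37, Mrpl40, Mrpl51, Mrpl28, Mrpl1, Mrpl47, Mrpl9, Mrpl19, Mrpl43, Mrpl46, Mrpl2, Mrpl33, Mrps22, Mrps35, Mrps18b, Mrps5, Mrps7 and Mrps10. Mrpl33 (0.015 ± 0.19, SE), Mrpl2 (0.053 ± 0.15, SE) and Mrps10 (0.052 ± 0.15, SE) had the smallest of these differences.

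Negative differences that did not pass were found in 15 members. In 9 they were no larger than 0.25 in size (Mrpl45, Mrps23, Mrps17, Mrps31, Mrps34, Mrpl41, Mrps26, Mrps30 and Mrpl15). Mrpl45, known for its place beside the exit of the peptide tunnel at the membrane, was at 10.46 and 10.88 in the knockout against 10.88 and 10.47 in the control (-0.0066 ± 0.20, SE). The remaining 6, also chosen by size, were Mrpl39, Mrpl3, Mrpl52, Mrpl11, Mrps2 and Mrps6. In these both knockout arrays lay below both control arrays, with differences from -0.40 to -0.27 (adjusted p from 0.115 to 0.316). By their brightest probe sets the members thus did not move as one block: Mrpl15 and Mrpl39, the brightest large subunit genes, lay on the lower side. This depended on the probe set. Mrpl39 differed by 0.24 by its other one, and the probe sets of Mrpl15 ran from -0.34 to 0.92. Mrpl52 (1.08), Mrps6 (0.33) and Mrpl11 (0.31) also had a probe set higher in the knockout, whereas all those of Mrpl3 were lower.

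The 3 paralogues named Mrps18 illustrate the spread between genes. Structures of the mammalian mitoribosome place Mrps18a, like Mrps30, in the large subunit, and Mrps18b and Mrps18c in the small one. Mrps18a was at 10.12 and 10.09 in the knockout against 9.64 and 9.58 in the control (0.50 ± 0.13, SE, adjusted p = 0.0725). Mrps18b was at 10.77 and 10.96 against 10.55 and 10.92 (0.13 ± 0.17, SE, adjusted p = 0.725), with overlapping groups. Mrps18c, whose symbol lies outside the rule, was at 11.23 and 12.06 against 10.95 and 11.24 (0.55 ± 0.27, SE, adjusted p = 0.267), and its groups overlapped too. None of the 3 passed the test, and the differences between them were not tested.

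The large subunit lay somewhat higher than the small one. Of its 47 genes 6 rose (12.8%) and 1 fell (2.13%), 39 were positive (83.0%) and the median difference was 0.31. Of the 28 small subunit genes 1 rose (3.57%) and 1 fell, 19 were positive (67.9%) and the median was 0.16. Among genes at least as bright as the dimmest member 3.89% rose and 3.68% fell, so both shares of the small subunit were near that background. Both knockout arrays lay above both control arrays in 31 large (66.0%) and 13 small subunit genes (46.4%), against 23.1% of all genes. Array by array, the median level of the large subunit exceeded that of the small subunit by 0.32 and 0.42 in the knockout against 0.13 and 0.23 in the control. These values do not overlap between the groups, but they are medians over members chosen with results known, and no test is given for them. The gap between the medians of the subunits, 0.14, stayed at 0.14 when Mrps18a and Mrps30 were counted with the large subunit. It was 0.028 once the dependence of each array on gene span and level had been taken out, so a difference between the subunits depends on that choice.

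**Figure D2:**
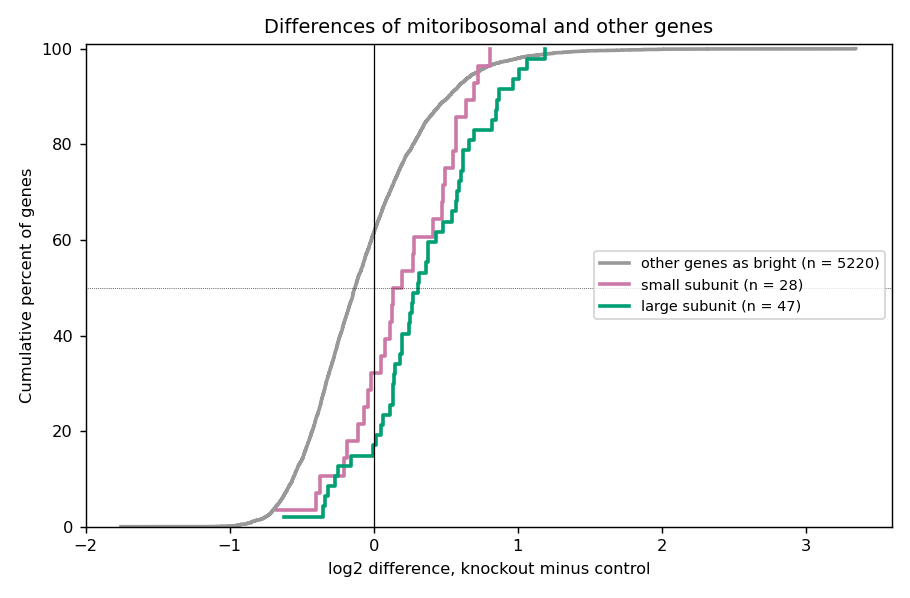
Cumulative percent of genes (vertical axis) at or below each log2 difference, knockout minus control (horizontal axis), for 47 large subunit genes, 28 small subunit genes and the other 5220 genes at least as bright as the dimmest member. The curves of both subunits lie to the right of the grey curve over most of their range, with medians of 0.31 and 0.16, and the small subunit curve meets the others at its lower end.

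The replicates of each group differed in these genes as well. Replicate 2 exceeded replicate 1 in 65 of 75 members in the knockout (median 0.30) and in 60 of 75 in the control (median 0.14). Among genes at least as bright as the dimmest member the same held for 41.9% in the knockout and 66.4% in the control. The highest of the 4 arrays was knockout replicate 2 in 51 members. The median difference of the members was 0.24 between the arrays numbered 1 and 0.40 between those numbered 2. It was 0.41 without knockout replicate 1 and 0.16 without knockout replicate 2, so its size rested strongly on the second knockout array, whereas its sign did not.

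Some ES cell markers were also higher in the knockout. Of 9 measured, 4 rose and 0 fell (limma; 0 were lower at an unadjusted p under 0.05): Utf1 (1.62), Esrrb (1.05), Nanog (0.94) and Pou5f1 (0.85), transcription and chromatin factors of the pluripotent state. The other 5 did not pass, among them Sox2 (-0.021) and Zfp42 (0.022). The share that rose was 44.4%, against 3.89% of genes at least as bright as the dimmest member. Between the knockout replicates the markers did not follow the members: replicate 2 exceeded replicate 1 in 3 of 9 markers, against 65 of 75 members. In the control it did so in 6 of 9 markers and 60 of 75 members. With 1 array left out, Utf1 passed in 1 of 4 fits and Esrrb, Nanog and Pou5f1 in 0. The part of what these markers show in the members' differences was not tested.

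Markers of fibroblasts, the usual feeder cells, also differed between replicates, in the direction opposite to the members. The mean level of 15 markers was 7.73 in knockout replicate 1, 7.10 in knockout replicate 2, 7.89 in control replicate 1 and 7.28 in control replicate 2, and 0 of the 15 passed between the groups (limma; 2 had an unadjusted p under 0.05, both lower in the knockout). Replicate 2 was lower in 11 of 15 markers in the knockout and in 13 of 15 in the control. The most different was Prrx1, a mesenchymal transcription factor, at 6.83 and 6.09 in the knockout against 8.02 and 7.39 in the control (-1.24 ± 0.28, SE, limma adjusted p = 0.0549). Col3a1, a fibrillar collagen, was at 8.33 and 6.83 in the knockout against 8.98 and 7.76 in the control. In such bulk samples fewer cells of a type and less RNA per cell cannot be told apart. The part of feeder RNA in the members' differences was not tested.

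The members were also set beside other genes of like genomic span. Members are short, with a median span of 7.75 kb (0.828 to 122 kb), against 22.5 kb for genes at least as bright. Over the 5288 bright genes with a known span, the difference fell with log10 span (Pearson's r = -0.36, across genes, which share the same 4 arrays and are not replicates). Over the 75 members it hardly did (r = -0.08). Among the shortest genes, up to 5 kb, the median was 0.23 in 24 members and 0.17 in 577 other genes, and 12.5% and 10.2% rose. From 5 to 10 kb it was 0.51 in 28 members and 0.065 in 681 other genes, and 14.3% and 8.66% rose. Above 10 kb the 23 remaining members had medians of 0.11, 0.37 and 0.26 in classes up to 20, up to 40 and over 40 kb, with 13, 4 and 6 members, where the other genes had medians of -0.072, -0.20 and -0.30. The 7 genes that rose spanned 0.828 to 8.88 kb. With the trend with span and level removed, 5 members rose (Mrpl4, Mrpl27, Mrpl38, Mrpl13 and Mrps27) and 1 fell (Mrpl44). Of the 18031 genes in that fit, 397 rose and 215 fell. The median of the members was 0.19, against -0.0081 over all genes. Mrpl34, Mrpl54, Mrpl36, Mrps21 and Mrps9 did not pass after this step.

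**Figure D3:**
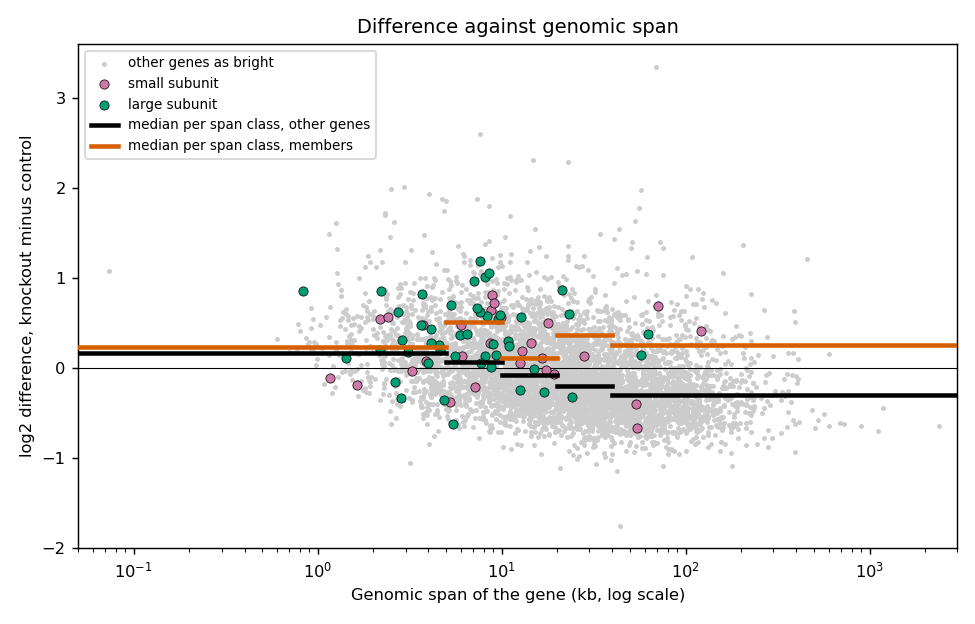
Log2 difference, knockout minus control, against genomic span in kb (log scale) for large (green) and small (pink) subunit genes and other genes at least as bright (grey), with horizontal bars for the median of each span class (black for other genes, orange for members). The black bars step down from 0.17 to -0.30 with span, whereas the orange bars stay above 0 in every class, with 4 and 6 members in the longest ones.

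The rule takes 1 probe set per gene, and other probe sets of the same genes gave a less uniform picture. In all, 33 members had a single probe set. Their median difference was 0.38, 29 of 33 were positive, and 2 rose (Mrpl4 and Mrpl36). The other 42 members had a median of 0.19 at their brightest probe set. Beside the brightest there were 46 further probe sets at a mean of 6 or more, from 27 genes. Of these 46, 23 had the sign of the brightest and 23 the other sign, with a median difference of 0.045. All such probe sets of a gene shared 1 sign in 10 of the 27 genes. When each of 45037 probe sets was tested singly, 0.440% passed as higher and 0.107% as lower. Of the 155 member probe sets, 1 passed as higher and 0 as lower (limma; 43 and 12 had an unadjusted p under 0.05).

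That probe set belongs to Mrps23, a small subunit gene whose brightest probe set showed nothing. The brightest was at 8.80 and 8.83 in the knockout against 8.71 and 8.95 in the control (-0.017). The second was at 9.16 and 9.38 against 7.91 and 8.12, a difference of 1.26 ± 0.15 (SE, limma adjusted p = 0.0470 over all probe sets). The dimmest, at a mean of 6.06, differed by -0.44. The probe sets of this gene thus spanned the full range from lower to clearly higher in the knockout.

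Several large subunit genes behaved alike. Mrpl52 was at 11.10 and 11.52 against 11.54 and 11.76 by its brightest probe set (-0.34), but at 10.06 and 10.46 against 9.09 and 9.27 by another (1.08). Mrpl15, the brightest member, differed by -0.25 by its brightest probe set and by 0.92 by the brightest one without an s or x in its suffix, which was at 11.70 and 11.90 against 11.01 and 10.74. Such suffixes mark probe sets that can bind several transcripts. For Mrpl50 the second probe set was at 8.93 and 9.05 against 9.14 and 9.33, below the control and opposite to the first. Mrpl19 differed by 0.13 by its brightest probe set, whereas the next was at 9.76 and 10.01 against 8.98 and 8.79. The position of each probe set in its transcript was not analysed here.

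**Figure D4:**
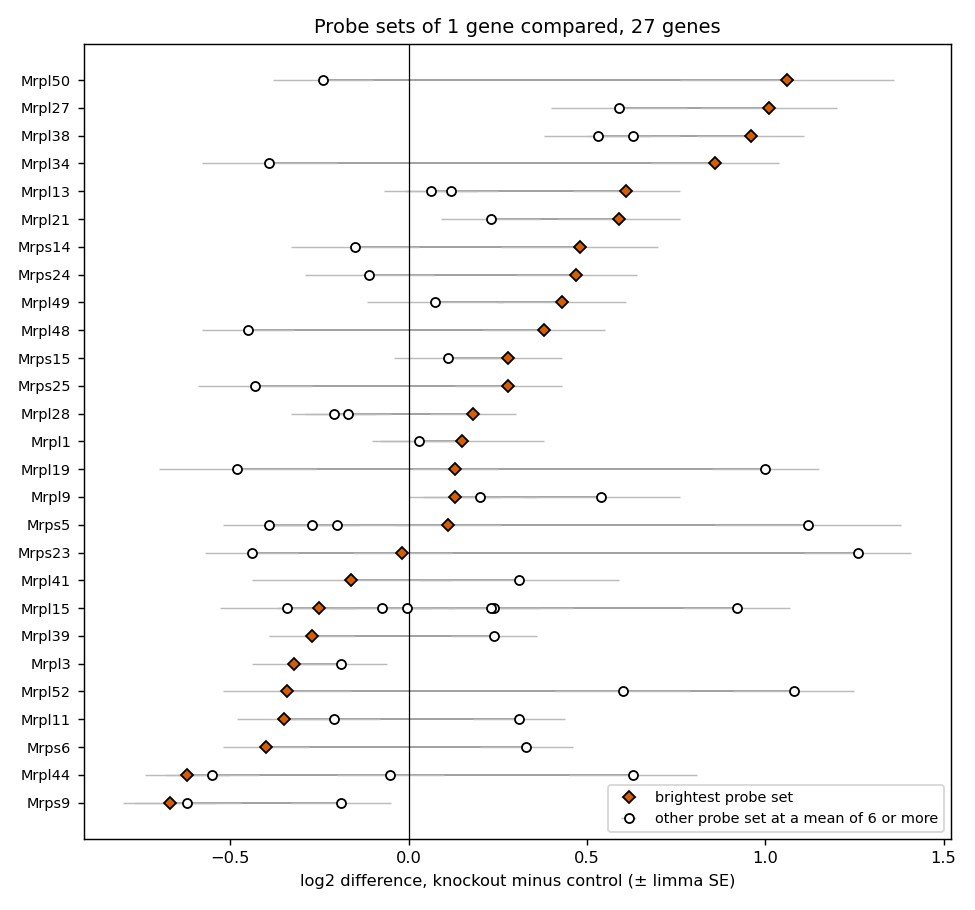
Log2 difference, knockout minus control, of every probe set whose mean reached 6, for the 27 members with more than 1 such probe set; diamonds are the brightest probe set, open circles the others, horizontal bars limma's standard error. Mrpl27, Mrpl38 and Mrps9 keep their sign across probe sets, whereas Mrps23, Mrpl52, Mrpl50 and Mrpl15 lie on both sides of 0.

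Averaging the probe sets left the sign of 67 of the 75 members as it was, and of 34 of the 42 with several probe sets. Mrpl15, Mrpl41, Mrpl52, Mrps2 and Mrps23 turned positive and Mrpl28, Mrpl35 and Mrps25 turned negative. When each gene was given the average of its probe sets, 60 of 75 members were positive with a median of 0.20, but 2 rose (Mrpl4 and Mrpl38) and 0 fell (limma; 1 was lower at an unadjusted p under 0.05). Of all 18193 genes, 224 rose and 97 fell in that fit. Some averaged probe sets lay in the Bacillus range, such as one of Mrpl54 (mean 4.29) and one of Mrps21 (3.98). With the average of the probe sets whose mean reached 6, an alternative added after seeing the data, the median was 0.24. Then 5 members rose (Mrpl4, Mrpl36, Mrpl38, Mrpl54 and Mrps21) and 0 fell (limma; 2 were lower at an unadjusted p under 0.05), and of all genes 359 rose and 295 fell. Mrpl44 came to -0.15 by both averages and Mrps9 to -0.31 and -0.49, neither of which passed.

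Proteins of the mitoribosome with other names were read from a separate list. Of 5 measured ones, 1 rose and 0 fell (limma; 1 was lower at an unadjusted p under 0.05), with a median of 0.43. Gadd45gip1, a large subunit protein near the exit of the tunnel, was at 10.29 and 10.57 in the knockout against 9.21 and 9.04 in the control (1.31 ± 0.16, SE, 2.48-fold, adjusted p = 0.0196). By the brightest probe set this exceeded the difference of every member, but with all probe sets averaged it was 0.69 (adjusted p = 0.0561), below Mrpl4. With only the probe sets whose mean reached 6 averaged, it was again 1.31 (limma adjusted p = 0.016), against 1.19 for Mrpl4. Dap3, a GTP-binding protein of the small subunit, was at 10.76 and 10.57 against 10.55 and 10.83 (-0.025 ± 0.16, SE), with overlapping groups. Chchd1 (0.43) and Ptcd3 (-0.49), both of the small subunit, did not pass, nor did Mrps18c.

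Genes that work with the mitoribosome were read from 4 further lists. Among genes at least as bright as the dimmest member the median difference was -0.13 and 39.2% were positive. Of all genes 1.98% rose and 2.17% fell. The medians of these lists, from -0.24 to -0.11, lay on either side of -0.13 and below the median over all genes, -0.022. The lists also hold genes dimmer than the dimmest member, down to a level of 3.51, so neither reference is matched to them. Each of the 5 genes that rose in the other-name list and these lists lost its call when any 1 array was left out (adjusted p from 0.0559 to 0.146).

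Among 13 measured translation factors 1 rose, 0 fell and 4 were positive, with a median of -0.18 (limma; 3 were lower at an unadjusted p under 0.05). The one that rose was Oxa1l, the insertase that takes new chains into the inner membrane, at 7.79 and 7.69 against 6.53 and 6.86 (1.05 ± 0.16, SE, adjusted p = 0.0317). With all probe sets averaged its difference was 0.47 (adjusted p = 0.0808), and with those whose mean reached 6 it was 0.38 (adjusted p = 0.185). Tufm, the elongation factor that brings aminoacyl-tRNA, was at 9.93 and 9.73 against 9.35 and 9.66 (0.32 ± 0.16, SE, adjusted p = 0.280), and it turned to -0.20 with all probe sets averaged.

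Of 27 genes for assembly and rRNA modification 2 rose, 0 fell and 7 were positive (median -0.11; 4 were lower at an unadjusted limma p under 0.05). Mpv17l2, a membrane protein needed for assembly, was at 7.80 and 7.63 in the knockout against 6.71 and 6.81 in the control (0.96 ± 0.14, SE, adjusted p = 0.0299). Eral1, a GTPase that binds the rRNA of the small subunit, was at 8.98 and 8.79 against 7.98 and 8.20 (0.80 ± 0.15, SE, adjusted p = 0.0426). In both genes both knockout arrays lay above both control arrays, as in 5 of the 27 genes of the list. In 13 of the 27 they lay below, and in 9 the groups overlapped. Of all genes, 23.1% lay above and 29.2% below in this way.

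Of 19 mitochondrial aminoacyl-tRNA synthetases and related enzymes 1 rose, 0 fell and 7 were positive (median -0.18; 4 were lower at an unadjusted limma p under 0.05). Sars2, which charges the mitochondrial serine tRNAs, was at 7.20 and 7.66 against 6.30 and 6.45 (1.06 ± 0.18, SE, adjusted p = 0.0378).

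None of 16 genes for mitochondrial transcription and its regulators passed, with 3 positive and a median of -0.24 (limma; 4 had an unadjusted p under 0.05, all lower in the knockout). Tfam, which packages mitochondrial DNA and starts its transcription, was at 10.36 and 10.30 against 10.70 and 10.71 (-0.37 ± 0.13, SE, adjusted p = 0.138). Polrmt, the mitochondrial RNA polymerase, was at 8.68 and 8.49 against 8.91 and 8.99 (-0.36 ± 0.14, SE, adjusted p = 0.171). Tfb2m, its partner at promoters, had the largest difference of the list (-0.48 ± 0.17, SE, adjusted p = 0.128). In these 3 genes both knockout arrays lay below both control arrays by the brightest probe set. The same held for 8 of the 16 genes of the list and 29.2% of all genes. Among genes at least as bright as the dimmest member it held for 2289 of 5295. The direction of Polrmt depended on the probe set, since its difference was 0.13 with its probe sets averaged. These lists span more of the genome per gene, with median spans of 13.2 to 27.6 kb, than the members, and the part of the gap between RNA ends in this contrast was not tested. The difference between the lists was not tested either.

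**Figure D5:**
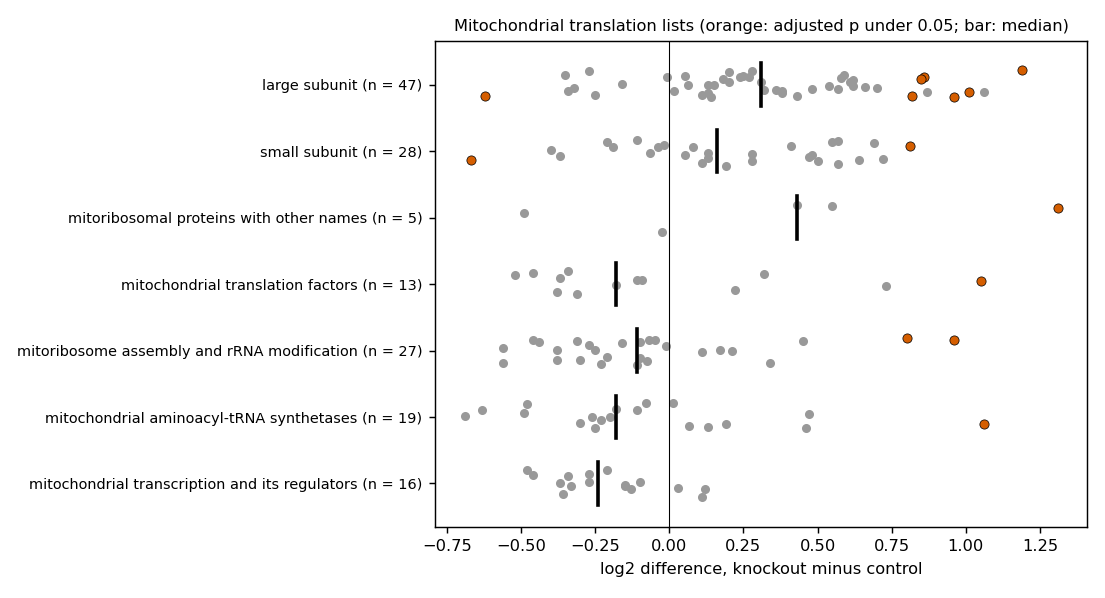
Log2 difference, knockout minus control, of each gene in the large and small mitoribosomal subunits and in 5 related lists; orange points passed the limma test at an adjusted p of 0.05, grey points did not, vertical bars are medians and the vertical scatter has no meaning. The subunits have medians of 0.31 and 0.16, and the lists of factors, synthetases and transcription genes have medians from -0.24 to -0.11.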

How the data were processed

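RNA of 4 ES cell samples was hybridised to Affymetrix arrays, per the labels' protocols. The deposited values are log2 expression per probe set (45101 per array). The submitters' processing notes name RMA and limma without versions. RMA corrects background, equalises the arrays' distributions and summarises probes, and it can hide a shift common to most genes. Probe sets were named from GEO's platform annotation and checked by gene ID against RefSeq (GRCm38.p6), which held 34741 of 34945 single-gene probe sets and changed 0 symbols. Groups came from the titles. The brightest probe set stood for each gene, and the genotypes were compared by limma 3.58.1 (lmFit, eBayes) in R 4.3.3 on all 4 arrays, two-sided, adjusted by Benjamini-Hochberg over 18193 genes. The fit was tested on simulated data. No filter on level was applied. Genomic span was known for 18031 genes and for all members. The genes named were the called members, the brightest, dimmest and least different ones, Mrps18a and Mrps18b, members whose probe sets disagreed, the called or most different genes of each list, and Mrps18c, Dap3, Tufm, Tfam and Polrmt. Mrpl12, Mrpl58, Mrpl50, Mrpl52, Mrpl15, Mrpl19, Mrps23, Sox2, Zfp42, Chchd1, Ptcd3 and Col3a1 were described after their values were seen. Members and lists were chosen with earlier results of these data known. Alternatives were other variance models, further normalizations, filters, probe set choices, removal of the trend with gene span and level (loess, span 0.3), a replicate block, and fits with 1 array left out.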

Additional observations from a re-analysis of the deposited data

How the results depend on the processing

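The median difference of the mitoribosomal genes stayed positive under every alternative run, from 0.13 with every probe set taken singly to 0.41. The other variance models, the replicate block and the filter at a mean of 6 leave each member's difference unchanged. There the median was bound to stay at 0.28. The counts were less stable. Against 7 higher and 2 lower members, 14 were higher (11 large, 3 small) with genes under a mean of 6 left out, 10 (2 of them small) after a further quantile normalization, 2 (2 large, 0 small) with 0 lower with all probe sets averaged, and 1 (0 large) with 0 lower with every probe set tested singly. Lower members numbered 0 with the mean of probe sets at 6 or more, 1 after removal of the span trend and 0 with an intensity trend, where 5 members were higher and 0 of these were small subunit genes. Without any 1 array, 0 to 1 members were higher (0 to 1 large, 0 to 0 small) and 0 to 0 lower. The subunit gap of 0.14 was 0.034 with every probe set singly and 0.028 without the span trend. Of all genes, 754 were called, 481 with an intensity trend, 1224 of 9484 at a mean of 6 or more, 321 with probe sets averaged, 246 with every probe set singly and 4 to 50 without 1 array. By direction, 360 of 18193 genes were higher and 394 lower in the fit used throughout. With genes under a mean of 6 left out, 525 were higher and 699 lower. These numbers were 458 and 413 after quantile normalization, 283 and 198 with an intensity trend, and 224 and 97 with all probe sets averaged. Of 45037 probe sets tested singly, 198 were higher and 48 lower. Mrpl15 turned from -0.25 to 0.92 (limma adjusted p = 0.0350) without _s_at and _x_at probe sets. Other turns of sign were of genes that passed in neither fit. With all probe sets averaged, and with those at 6 or more, Mrpl15 came to 0.084 and 0.10, Mrps23 to 0.27 and 0.27, Tufm to -0.20 and -0.026, and Polrmt to 0.13 and 0.13. A further quantile normalization put Mrpl45 at 0.0021 and Mrps23 at 0.036, and centring put Mrpl33 at -0.0013. Without the span trend Mrpl45 was at 0.035, Mrpl33 at -0.078, Mrpl2 at -0.15, Mrps23 at 0.0039, Mrps18b at -0.013 and Dap3 at 0.14. Without 1 array the differences ran from -0.21 to 0.20 in Mrpl45, from -0.22 to 0.25 in Mrpl33, from -0.085 to 0.19 in Mrpl2, from -0.14 to 0.10 in Mrps23, from -0.24 to 0.17 in Mrps17, from -0.10 to 0.21 in Mrps10, from -0.059 to 0.32 in Mrps18b and from -0.16 to 0.11 in Dap3. The causes were not tested, except that fewer arrays or genes were in the fit where an array or dim genes were left out.

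The samples share replicate numbers, but the labels state no pairing and there are only 2 numbers. Deviations of equally numbered arrays correlated at 0.29 over all genes and at 0.06 over the members. A correlation across genes does not register a shift common to them. Replicate 2 exceeded replicate 1 in 65 of 75 members in the knockout and in 60 of 75 in the control. With the replicate block 28 members were higher (18 large, 10 small) and 2 lower. Of all 18193 genes 3092 were called, 1200 as higher and 1892 as lower. All 9 member calls of the unblocked fit were kept.

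With 2 arrays per group, the smallest member difference that passed was 0.62 in size, and signal over background was no limit, since every member was brighter than the Bacillus controls.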
